A study of Mus musculus with 33 samples.

Results

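The genes Trim66, Cyb5r2 and Cntnap3 were followed across the genotype groups of cardiomyocytes (contracting heart muscle cells) from mice. They were found by their symbols in 3 tables of normalized counts and are 3 of 32245 gene rows. The 3 genes were chosen by their values in the libraries without Ptpmt1 against those of the controls, where they were high and near zero, so that contrast is described here and not tested. The knockouts and the mutation came from separate mouse lines, and nuclear RNA is given as the molecule, with libraries made by a ribosomal RNA depletion kit. The FST line had 3 controls, 3 Eif2alpha mutants without the Ptpmt1 knockout (called Eif2a mutants below), 3 libraries with the cardiomyocyte-specific Ptpmt1 knockout and 3 with both. The PHT line had 2 controls, 2 with a cardiomyocyte-specific Hri knockout alone, 3 with the Ptpmt1 knockout and 2 with both, and for these last the label does not say whether the Hri knockout was limited to cardiomyocytes. The PTGC line had 3 controls and 3 libraries with the Ptpmt1 and Gcn2 knockouts together, and no group with either alone. The other 6 of the 33 samples, from a line with the Ptpmt1 knockout alone, were not analysed here. The sources used here do not give the Cre driver, the alleles or the age, and nothing says whether each library was 1 animal, so p-values measure the spread between libraries.

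Ptpmt1 encodes a phosphatase of the inner mitochondrial membrane needed to make cardiolipin, a lipid on which the respiratory chain depends. Mitochondrial defects can activate the integrated stress response (ISR), in which a kinase such as Hri or Gcn2 phosphorylates the alpha subunit of the initiation factor eIF2. General translation then falls while the transcription factor Atf4 is made, and Atf4 raises genes of amino acid synthesis, amino acid transport and tRNA charging. Trim66 (TIF1-delta) belongs to the TIF1 family of chromatin-binding transcriptional regulators and is best known from the testis. Cyb5r2 is a reductase that passes electrons from NADH to cytochrome b5. Cntnap3 is a membrane protein of the contactin-associated (Caspr) family, known from the nervous system.

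On GRCm38, the build that mm10 names, the GENCODE annotation places Trim66 (ENSMUSG00000031026.15) at chr7:109449006-109508134 and Cyb5r2 (ENSMUSG00000048065.8) at chr7:107748455-107758032, both on the minus strand and 1691 kb apart. Cntnap3 (ENSMUSG00000033063.8) lies at chr13:64736182-64903955, also on the minus strand. The DNA before each gene's start is shown because the 3 genes moved together. The sequences are from RefSeq (GRCm38.p6), read 5′ to 3′ on the gene's strand, and end at the base before the RefSeq start, except that Cntnap3 stops 68 bases before it, where a longer GENCODE transcript begins. The Trim66 stretch is chr7:109508135-109508384, that of Cyb5r2 chr7:107758033-107758282 and that of Cntnap3 chr13:64903956-64904138.
Trim66: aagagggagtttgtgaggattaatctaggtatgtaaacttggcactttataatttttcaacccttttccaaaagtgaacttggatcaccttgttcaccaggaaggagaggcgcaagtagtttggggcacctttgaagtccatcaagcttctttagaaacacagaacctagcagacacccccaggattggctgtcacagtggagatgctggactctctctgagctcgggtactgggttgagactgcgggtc
Cyb5r2: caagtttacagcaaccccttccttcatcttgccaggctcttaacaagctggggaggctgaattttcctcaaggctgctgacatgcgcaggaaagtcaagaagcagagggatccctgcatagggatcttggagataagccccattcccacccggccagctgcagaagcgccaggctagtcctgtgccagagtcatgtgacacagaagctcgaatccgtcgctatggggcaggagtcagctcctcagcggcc
Cntnap3: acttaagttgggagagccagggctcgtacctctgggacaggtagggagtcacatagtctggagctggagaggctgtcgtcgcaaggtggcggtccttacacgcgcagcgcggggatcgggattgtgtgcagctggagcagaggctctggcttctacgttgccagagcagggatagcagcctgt

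Searches covered 4 motifs on both strands from 250 bases before to 50 after the RefSeq start: TGATGNAAN, a general form of the C/EBP-ATF element that Atf4 can bind, TGATGCAAT, which is 1 case of it, and the cAMP-type elements TGACGTCA and TGACGCAA. Cyb5r2 held 1 match to TGATGNAAN, from base 10 to 18 after the start and read on the opposite strand. No match to any of the 4 motifs was found in these windows of Trim66 and Cntnap3, nor to the other 3 motifs in that of Cyb5r2. Over all 32851 RefSeq promoters of this length, 3.95% held TGATGNAAN, 0.192% TGATGCAAT, 1.79% TGACGTCA and 0.490% TGACGCAA. Of 38 promoters of 31 known ISR target genes, 11 held it (28.9%). The matched letters in Cyb5r2 were TGATGAAAC, the same 9 as in Asns, the asparagine synthetase gene whose promoter carries a well-studied amino acid response element. This exact string, looked up after the match was seen, was present in 81 of the 32851 promoters (0.247%). Stretches of 30 bases around the matches are shown for Cyb5r2 and for 3 ISR targets, with the motif in capitals, on the gene's strand. They are chr7:107758003-107758032 for Cyb5r2, chr6:7693213-7693242 for Asns, chr2:119351038-119351067 for Chac1 and chr2:152344028-152344057 for Trib3, of which the Chac1 gene alone is on the plus strand.
Cyb5r2: actgccggatGTTTCATCAtccccaccatc
Asns: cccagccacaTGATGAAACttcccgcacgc
Chac1: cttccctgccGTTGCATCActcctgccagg
Trib3: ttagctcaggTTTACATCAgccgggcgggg

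The libraries held 1887885 to 12583014 reads in genes in FST, 10738918 to 19404219 in PHT and 10794950 to 19324922 in PTGC. In FST, replicate 2 of the libraries with both mutations (1887885 reads, 15334 genes detected) and replicate 1 of the Eif2a mutants (15155 genes) stood apart from the rest, which detected up to 18628 genes. Ptpmt1 itself fell with its knockout: its normalized count (the read count divided by 1 size factor per library) was 163 ± 10.3 (SD, n = 3) in FST controls and 35.5 ± 4.71 (n = 3) in the knockout, 265 ± 33.6 (n = 2) and 48.8 ± 13.8 (n = 3) in PHT, and 328 ± 35.4 and 71.2 ± 4.48 (n = 3 each) in PTGC. With both mutations Ptpmt1 was at 45.2 ± 4.87 in FST (n = 3) and 77.4 ± 0.957 in PHT (n = 2). These FST libraries overlapped the knockout, while those of PHT, at 76.7 to 78.1, lay above all its knockout libraries (40.0 to 64.8). The part of this in the differences between these groups given below was not tested. The Hri gene Eif2ak1 was at 389 to 416 in the libraries labelled Hri knockout and at 548 to 590 in controls, while those labelled with both knockouts, at 476 to 545, overlapped the Ptpmt1 knockout (517 to 630). The Gcn2 gene Eif2ak4 overlapped between the PTGC groups (313 to 386 and 251 to 491), so gene totals do not check the Gcn2 label or that of the PHT libraries with both knockouts. All 8 cardiomyocyte markers had reads in all 27 libraries. In these bulk samples fewer cells of a type and less RNA per cell cannot be told apart.

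**Figure D1:**
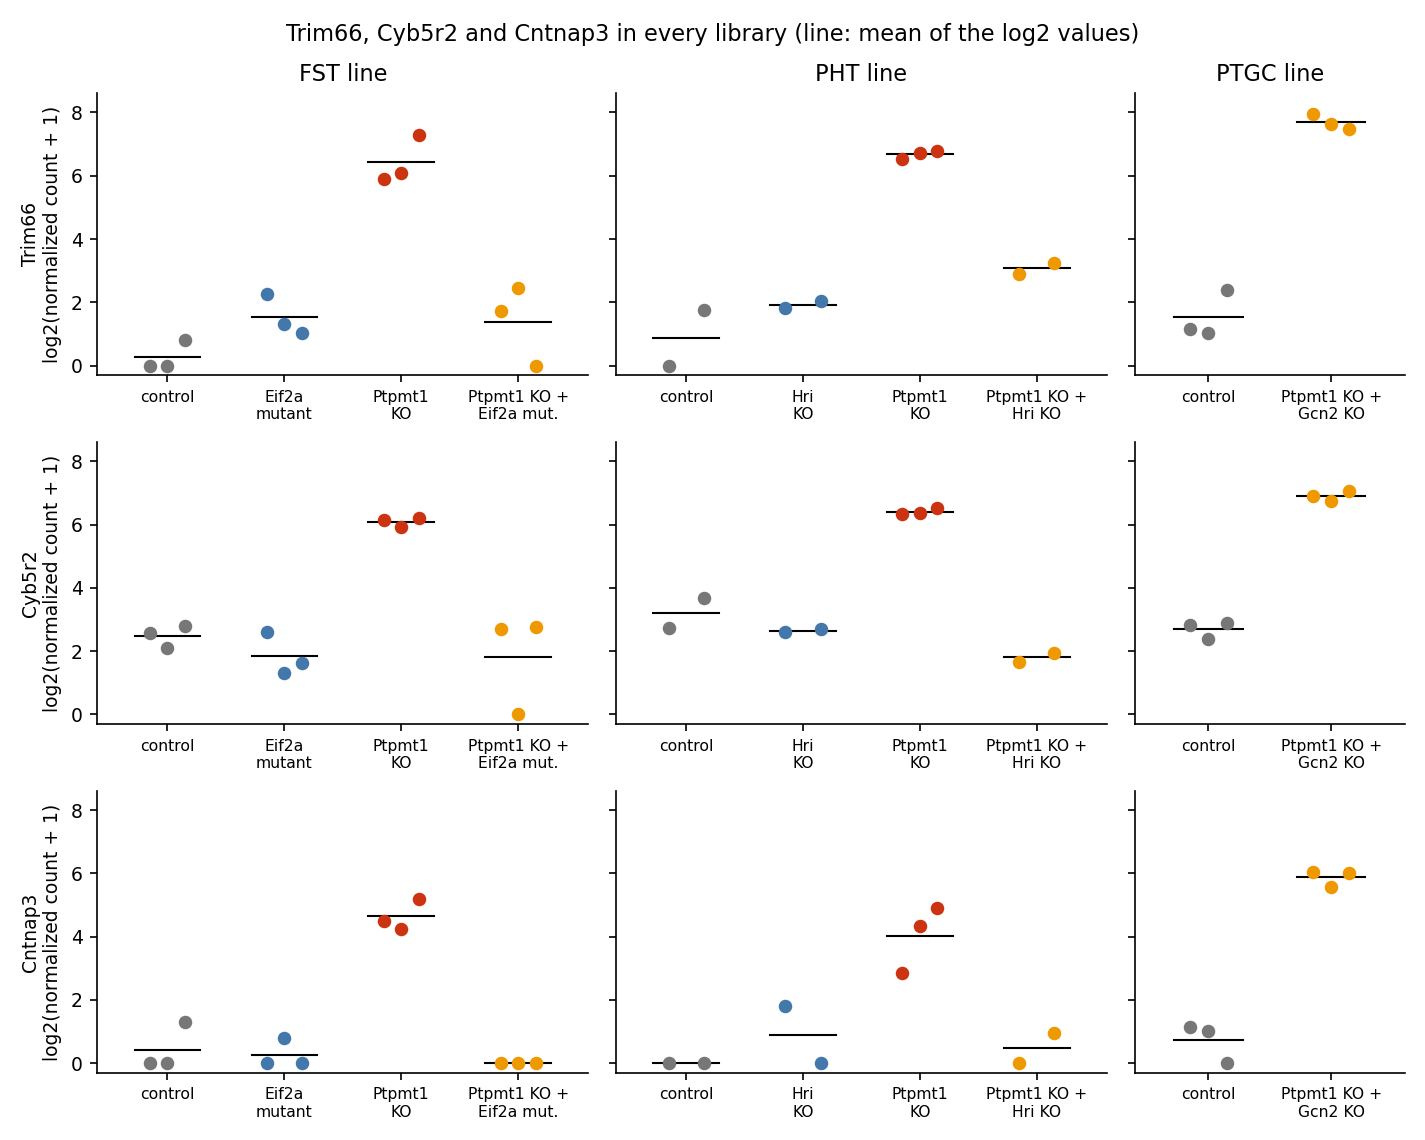
Normalized counts of the 3 genes on a log2(value + 1) axis, 1 point per library, with a line at the mean of the log2 values, by genotype (columns of points) and mouse line (panels). The Ptpmt1 knockout libraries of FST and PHT and the Ptpmt1 and Gcn2 double knockouts of PTGC lie above every other library of their line; levels are not comparable between lines, whose tables were normalized separately.

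Trim66 was almost silent in controls. Its normalized counts in the FST line were 0, 0 and 0.735 in controls, 58.9, 66.3 and 156 in the Ptpmt1 knockout, 3.81, 1.47 and 1.05 in the Eif2a mutant, and 2.33, 4.42 and 0 with both. The knockout libraries were all above the other 9, with replicate 3 more than the rest of them, and the group with both mutations overlapped the controls. By summed reads per size factor, 392 knockout reads against 1 control read gave a ratio of 380 with an exact 95% counting interval of 67.8 to 15050, which covers counting error only. In PHT, Trim66 was at 0 and 2.39 in controls, 92.2, 105 and 110.0 in the Ptpmt1 knockout, 2.52 and 3.11 in the Hri knockout, and 6.48 and 8.57 with both knockouts. Here the double knockouts lay far below the Ptpmt1 knockout. They were above both controls and both Hri knockouts, a separation of very few libraries that was not counted over all genes. By sex-linked genes both double knockouts were male and both controls female, and these groups were not tested against each other. The knockout to control ratio was 98.3 (27 to 815, from 338 and 2 reads), and that of the double knockouts to controls 7.21 (1.68 to 65.0, from 15 and 2 reads). In PTGC, controls were at 1.22, 1.05 and 4.27 and the Ptpmt1 and Gcn2 double knockouts at 245, 199 and 177, a ratio of 96.5 (44.1 to 264). The groups of PTGC did not overlap.

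Cyb5r2 started from a low level that was above zero in each control. In FST it was at 4.94, 3.32 and 5.88 in controls, 69.2, 59.7 and 73.2 in the Ptpmt1 knockout, 5.07, 1.47 and 2.10 in the Eif2a mutant, and 5.45, 0 and 5.85 with both. The knockout libraries were close to each other and apart from all the rest, and the 0 came from the shallowest library, where 1 read is worth 4.42 normalized counts. The knockout to control ratio was 14.3 (8.89 to 24.6, from 266 and 18 reads). In PHT the values were 5.65 and 11.9 in controls, 79.7, 80.7 and 91.0 in the Ptpmt1 knockout, 5.04 and 5.45 in the Hri knockout, and 2.16 and 2.86 with both. Both double knockouts were below both controls, where Trim66 was above them. Neither difference was tested, such separation was not counted over all genes, and the double knockouts were male and the controls female. The ratio of knockout to control was 9.93 (6.0 to 17.6), and that of double knockout to control 0.301 (0.0861 to 0.859, from 5 and 16 reads). In PTGC the controls were at 6.09, 4.18 and 6.41 and the double knockouts at 118, 106 and 132, a ratio of 21.5 (12.9 to 38.7).

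Cntnap3 had the lowest level of the 3 in the libraries with the Ptpmt1 knockout alone. In FST it was at 0, 0 and 1.47 in controls, 21.5, 18.0 and 35.3 in the Ptpmt1 knockout, 0, 0.737 and 0 in the Eif2a mutant, and 0 in all 3 libraries with both. The ratio of knockout to control was 49.4 (13.3 to 414), from 102 and 2 reads. With 0 reads in the group with both mutations, Cntnap3 was at least 20.6-fold lower there than in the knockout, against a floor of 3 reads over the group. In PHT it had no read in either control, values of 6.23, 19.1 and 29 in the Ptpmt1 knockout, 2.52 and 0 in the Hri knockout, and 0 and 0.952 with both. The knockout libraries spread widely, all above the rest of the line, and were at least 12-fold above the controls by the same floor. In PTGC it was at 1.22, 1.05 and 0 in controls and at 64.8, 47.0 and 63.4 in the double knockouts, a ratio of 80.5 (22 to 669, from 202 and 2 reads).

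The next comparison asked what the second mutation did to these levels once Ptpmt1 was lost. Genes were tested with limma on log2(value + 1), in 1 fit per table over the genes that reached a value of 10 in enough libraries, with Benjamini-Hochberg adjustment over all genes tested (called below 0.05). Each of the 3 genes passed that filter through its high group. The knockout libraries used here are those in which the genes were seen to be high, so part of the difference comes with the choice. In FST all 3 genes fell when the Eif2a mutation was added to the knockout, where 0.878% of 13894 genes were called. Trim66 fell by 5.03 ± 0.78 (SE, log2; limma adjusted p = 0.00791), Cyb5r2 by 4.27 ± 0.70 (0.00888) and Cntnap3 by 4.64 ± 0.94 (0.0302). The normalized counts behind this were 93.9 ± 54.3 and 2.25 ± 2.21 (SD, n = 3 each) for Trim66, 67.4 ± 6.94 and 3.77 ± 3.27 for Cyb5r2, and 24.9 ± 9.17 and 0 for Cntnap3. No library with both mutations reached the lowest knockout library for any of the 3. Part of this separation comes with the choice too, and it was not counted over all genes.

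Adding the Hri knockout in PHT gave lower levels of all 3 genes, with 2 of the 3 called, where 0.327% of 14963 genes were called. As in FST, the genes were seen to be high in these knockout libraries and passed the filter through them. Part of the difference, and of any separation of the groups, therefore comes with the choice. Cyb5r2 fell by 4.60 ± 0.47 (limma adjusted p = 9.7e-05), from 83.8 ± 6.28 (SD, n = 3) to 2.51 ± 0.49 (n = 2). Trim66 fell by 3.61 ± 0.57 (0.00879), from 102.5 ± 9.25 to 7.53 ± 1.48. For Cntnap3 the difference was -3.55 ± 1.02, with groups of 18.1 ± 11.4 and 0.476 ± 0.673 that did not overlap, and it was not called (adjusted p = 0.269 by limma, 0.163 by edgeR and 0.200 by DESeq2). By summed reads, the double knockouts kept 7.34% (4.06 to 12.3) of the knockout level of Trim66, 3.03% (0.98 to 7.15) of that of Cyb5r2 and 2.67% (0.0664 to 15.4) of that of Cntnap3. In FST the shares left were 1.68% (0.456 to 4.34) for Trim66 and 7.43% (3.79 to 13.2) for Cyb5r2. The 2 lines were normalized apart and whether these shares differ between them was not tested.

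These calls have limits. The Cntnap3 call in FST was lost when any 1 of the 6 libraries compared was left out (adjusted p of 0.050 to 0.142), while without both libraries that stand apart, the other being an Eif2a mutant, it was 0.0132. The Trim66 call in PHT was lost without knockout replicate 2 (0.0815) or with a term for sex (-3.46 ± 0.80, 0.263), and the Cyb5r2 call in FST was lost without knockout replicate 1 (0.0542). Sex was inferred from expression, with a library taken as male where the Y-linked genes Ddx3y, Eif2s3y, Kdm5d and Uty together exceeded Xist. By this, the PHT knockout group held 1 male and 2 females, and both double knockouts were male. Within the knockout group, the male was at 92.2, 79.7 and 6.23 and the females at 105 and 110.0, 80.7 and 91.0, and 19.1 and 29, for Trim66, Cyb5r2 and Cntnap3. In FST all 3 knockout libraries were male, as were 2 of the 3 with both mutations. Marker sums of other cells moved too: mural cell markers (4 of 4 with reads) were at 1331 to 1528 in the FST knockout and 1551 to 1763 with both mutations, and erythroid markers (7 of 7) at 1704 to 7642 in the PHT knockout and 11585 to 19814 in the double knockouts. Male germ cell markers (2 or 3 of 10) summed to 21.0 to 36.1 and 44.3 to 47.6 in those PHT groups. By gene, the mural markers tested in FST differed by 0.33 (Cspg4), 0.59 (Rgs5) and -0.04 (Pdgfrb) on adding the Eif2a mutation. The part of these marker shifts in the differences was not tested.

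**Figure D2:**
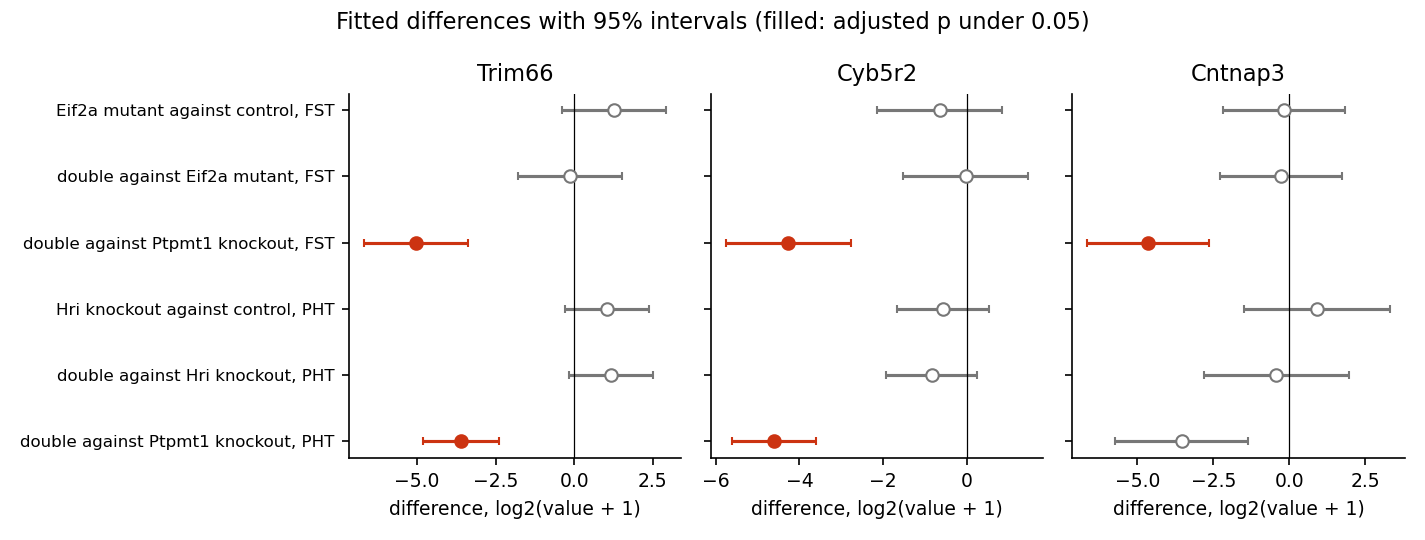
Fitted difference with its 95% interval on the log2(value + 1) scale (x axis) for each gene (panels) in 6 comparisons (rows), filled where the limma adjusted p is under 0.05. The differences from the Ptpmt1 knockout lie far below 0, from -3.55 to -5.03, and the intervals of the other comparisons include 0.

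Without the Ptpmt1 knockout, the second mutations alone gave no call for the 3 genes. In the Eif2a mutant against control, where 0.0360% of genes were called, Trim66 differed by 1.27 (95% interval -0.39 to 2.93), Cyb5r2 by -0.64 (-2.14 to 0.85) and Cntnap3 by -0.17 (-2.18 to 1.84). In the Hri knockout against control, with 0.0200% called, the differences were 1.05 (-0.29 to 2.38), -0.57 (-1.67 to 0.52) and 0.91 (-1.49 to 3.30). By limma and by edgeR 0 of the 3 were called in either comparison, with 0 also at an unadjusted p under 0.05, and by DESeq2 0 were called with 1 at that p, in the Eif2a mutant. All 3 Eif2a mutants were male against 1 of 3 FST controls, and both Hri knockouts were male and both PHT controls female. With a sex term, which in PHT rests on the sexes within the Ptpmt1 knockout group, the differences were 1.58, -0.25 and 0.05 in the Eif2a mutant and 1.27, -0.47 and 2.67 in the Hri knockout, none called. The intervals span several fold, so changes of that size at these few reads were not detectable. Trim66 was at 1 to 4 reads in each of the 5 single-mutant libraries, against 0, 0, 1, 0 and 2 reads in the 5 controls of the same lines. These controls are among the libraries by which the genes were chosen, being near zero in them. Differences from them therefore lean towards a rise with that choice. The Ptpmt1 knockout libraries enter the shared estimate of spread behind the intervals, and the genes passed the filter through them.

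A further 2 comparisons, added after the data were seen, set the libraries with both mutations against those with the second mutation alone, and so ask what the Ptpmt1 knockout did in that background. The means compared hold none of the libraries by which the genes were chosen, but those libraries enter the shared estimate of spread behind the intervals and p-values, and the genes passed the filter through them. Ptpmt1 itself was lower by 1.78 ± 0.17 in FST (limma adjusted p = 0.000358) and by 1.75 ± 0.24 in PHT (0.0231). With Eif2a mutated, where 0.00720% of genes were called, Trim66 differed by -0.14 (-1.80 to 1.51), Cyb5r2 by -0.03 (-1.52 to 1.47) and Cntnap3 by -0.27 (-2.28 to 1.74). With Hri knocked out, where 0.0200% were called, the values were 1.15 (-0.18 to 2.49), -0.84 (-1.93 to 0.26) and -0.43 (-2.82 to 1.97). None of the 3 was called by limma or edgeR in either comparison, with 0 at an unadjusted p under 0.05, and DESeq2 called none in PHT and gave no adjusted p in FST. Fitted on the compared groups alone, the SE of Trim66 was 1.33 in FST and 0.92 in PHT, against 0.78 and 0.62 in the shared fit. The signs for Cyb5r2 and Trim66 in FST turned with several settings.

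The level per length gave another order than the counts. Per kb of exon, the Ptpmt1 knockout mean in FST was 24.3 normalized counts for Cyb5r2, 9.27 for Trim66 and 3.91 for Cntnap3. The same order held in the PHT knockout (30.2, 10.1 and 2.84) and the PTGC double knockout (42.9, 20.5 and 9.14). In FST controls it was 1.70, 0.0242 and 0.0768. Even in the FST knockout, Trim66 stayed below its relatives Trim33 (82.4 per kb), Trim24 (106) and Trim28 (564), and Cyb5r2 below Cyb5r1 (93.3) and Cyb5r3 (166).

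No relative of Trim66 was called. The TIF1 family members Trim24, Trim28 (KAP1, a corepressor of zinc finger proteins) and Trim33 were each measured in all 3 tables, and 0 of 3 were called in any comparison by limma, edgeR or DESeq2. At an unadjusted p under 0.05, limma had 1 of 3 in the FST knockout, Trim33 with 0.31 ± 0.11 (adjusted p = 0.223), and the same gene, with -0.28 ± 0.11 (0.267), when the Eif2a mutation was added; edgeR and DESeq2 likewise had 1 of 3 in each, and there was none elsewhere. The 13 genes of HP1 proteins and silencing enzymes, with which TIF1 proteins work, gave 0 calls in the contrasts of Ptpmt1 loss by the 3 tools. At an unadjusted p under 0.05 there were 2, 1 and 2 of these 13 by limma in FST, PHT and PTGC, 2, 0 and 2 by edgeR, and 3, 1 and 2 by DESeq2. In these contrasts, on which the 3 genes were chosen, 0.504% of genes were called in FST, 0.301% in PHT and 0.743% in PTGC.

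Among the 8 other genes of the cytochrome b5 system, Cyb5r1, a second cytochrome b5 reductase, was the 1 gene called. It rose by 0.85 ± 0.18 in the FST knockout (limma adjusted p = 0.0475) and by 1.28 ± 0.12 in the PTGC double knockout (0.000101). In the PHT knockout its difference was 0.57 ± 0.15 (0.322). It fell by 0.83 ± 0.18 when the Eif2a mutation was added (0.0352), and with Hri also lost the difference was -0.70 ± 0.15 (0.0827 by limma and 0.00577 by DESeq2). The FST calls of Cyb5r1 were lost under 9 and 7 of 17 alternatives. Cyb5r3, the main reductase of this family in most tissues, was at -0.24 ± 0.09 (0.265), -0.01 ± 0.10 (0.999) and 0.00 ± 0.10 (0.994) in FST, PHT and PTGC. The cytochromes Cyb5a and Cyb5b, the acceptors of these electrons, and Cyb5r4, Cyb5rl, Cyb5d1 and Cyb5d2 lay between -0.49 and 0.18 in the 3 contrasts.

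The relatives of Cntnap3 were at low counts. Of 12 other contactins and Caspr genes, 3 could be tested in FST, 6 in PHT and 5 in PTGC, and 0 were called by limma, edgeR or DESeq2, with 0 at an unadjusted p under 0.05. Cntnap1, the Caspr protein of the myelinated axon, differed by -0.22 ± 1.15 (limma adjusted p = 0.970), -0.06 ± 0.29 (0.999) and 0.18 ± 0.31 (0.818) in FST, PHT and PTGC, and Cntnap2 by -0.21 ± 0.57, -0.41 ± 0.50 and -0.50 ± 0.36. Neuron markers, of which 5 or 6 of 7 had reads, summed to 53.5 to 75.7 in FST controls and 65.6 to 70.1 in the knockout, to 82.0 to 93.0 and 79.7 to 95 in PHT, and to 73.0 to 112 and 81.5 to 96.7 in PTGC, so the groups overlapped. Schwann cell markers, 2 to 4 of 4 with reads, summed to 62.5 to 81.5 and 59.7 to 107 in FST and overlapped likewise in PHT and PTGC.

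**Figure D3:**
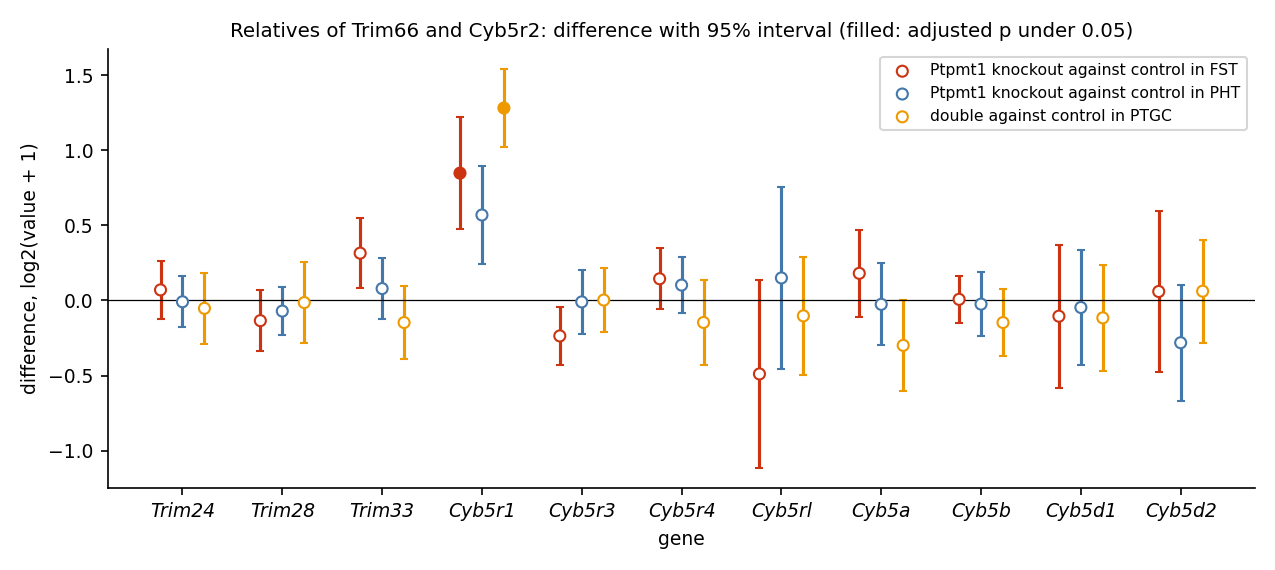
Fitted difference with its 95% interval on the log2(value + 1) scale (y axis) for the TIF1 and cytochrome b5 relatives of Trim66 and Cyb5r2 (x axis) on loss of Ptpmt1, coloured by mouse line and filled where the limma adjusted p is under 0.05. Cyb5r1 alone is filled, at 0.85 in FST and 1.28 in PTGC.

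The wider stress programme moved with the 3 genes. Of the known ISR targets, a list of 36 genes that holds none of the 3, 17 of 33 tested rose in the FST knockout and 22 of 35 in that of PHT, and 31 of 35 in the PTGC double knockout, with none lower. Their median difference was 1.06, 0.87 and 1.61 (log2), beside -0.01, 0.00 and 0.00 over all genes tested. When the second mutation was added, 17 of 33 fell in FST and 21 of 35 in PHT, with medians of -1.02 and -0.98. Some counts rest on single libraries. The 17 higher in FST became 10 without any 1 of the controls and 8 with a sex term, the 22 in PHT became 14 without control replicate 1 and 9 without control replicate 2, and the 17 that fell in FST became 10 without replicate 1 and 8 without replicate 3 of the libraries with both mutations. The 21 that fell in PHT became 10 with a sex term. Asns rose by 2.36 ± 0.15 in FST (limma adjusted p = 1.56e-06), 2.14 ± 0.17 in PHT (3.11e-05) and 2.64 ± 0.11 in PTGC (3.28e-07). Trib3, a pseudokinase induced by Atf4, rose by 3.96 ± 0.34, 3.57 ± 0.43 and 4.69 ± 0.23, and Atf4 itself by 0.97 ± 0.13, 0.87 ± 0.12 and 1.20 ± 0.11. In the Eif2a mutant alone 0 of 33 were called by limma (4 at an unadjusted p under 0.05) and by edgeR (5), and 1 by DESeq2 (5), and in the Hri knockout alone 0 of 35 by all of them (3, 2 and 2 by limma, edgeR and DESeq2). The comparisons of 1 line share their knockout libraries, so these counts are not independent of each other.

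Over single libraries, the summed normalized count of the ISR targets was high where the 3 genes were high. In FST it was 7831 to 8522 in controls, 8922 to 9480 in Eif2a mutants and 8542 to 8835 with both mutations, against 14433, 14275 and 23282 in knockout replicates 1 to 3. Replicate 3, with the highest sum, was also highest for Trim66 (156), Cyb5r2 (73.2) and Cntnap3 (35.3). Between replicates 1 and 2 Trim66 went the other way from the sum (58.9 and 66.3). The Eif2a mutants had sums above those of the controls, while Cyb5r2 averaged 2.88 in them and 4.71 in controls. In PHT the sum was 13671 to 14069 in controls, 13564 to 14122 with both knockouts, and 23202, 25749 and 30700 in the Ptpmt1 knockout, where each of the 3 genes was lowest in replicate 1 and highest in replicate 3. That replicate 1 was also the only male of its group and had the most Ptpmt1 (64.8, against 41.7 and 40.0 in replicates 2 and 3). The part of either in this order was not tested. In PTGC the sum was 13544 to 13957 in controls and 37925, 33435 and 37016 in the double knockouts, and there Cyb5r2 and Cntnap3 were lowest in replicate 2 while Trim66 was lowest in replicate 3. The FST knockout replicate 3 also had a higher sum over the 5 fibroblast markers, all with reads (14711, against 8020 and 8121 in replicates 1 and 2 and 8258 to 8870 in controls), whose part in its Trim66 value was not tested. Without it, Trim66 fell by 4.60 ± 0.98 on adding the Eif2a mutation (limma adjusted p = 0.0263).

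**Figure D4:**
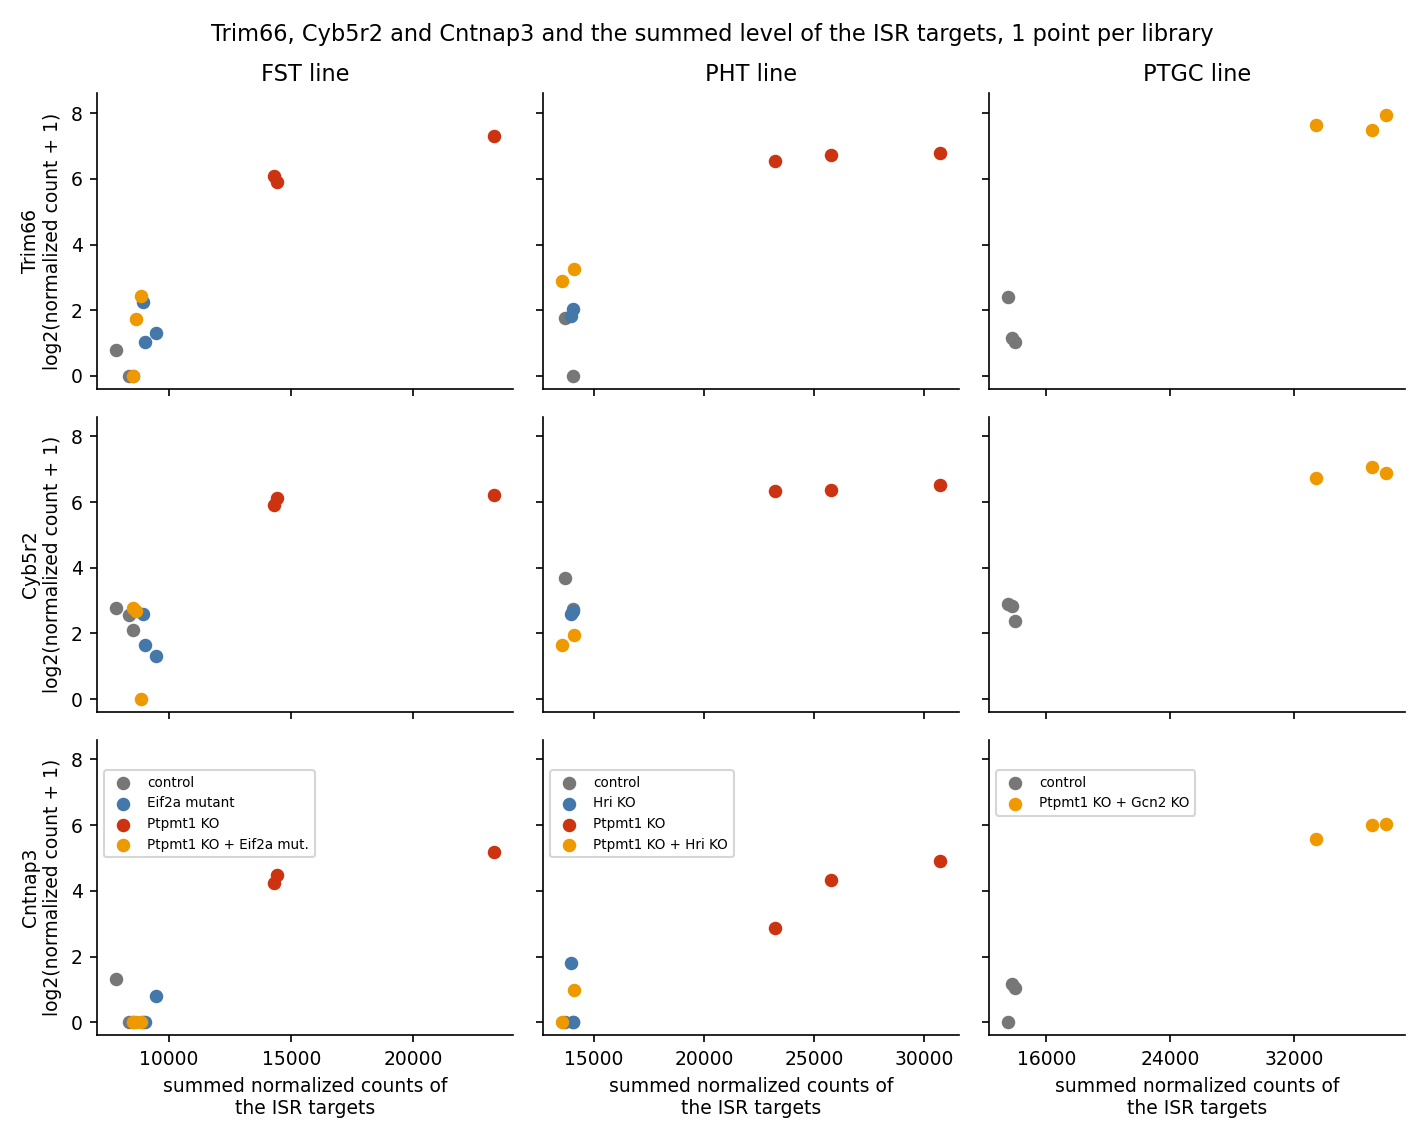
Normalized count of each gene on a log2(value + 1) axis (y) against the summed normalized count of the ISR targets (x), 1 point per library, coloured by genotype, with 1 column of panels per mouse line. Libraries fall into a low cluster and a cluster of the knockouts with high sums, from 14275 in FST, 23202 in PHT and 33435 in PTGC, in which the 3 genes are high.

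Genes of most like pattern were ranked by Pearson r over the 27 libraries, on log2(value + 1) after removing each table's mean, among 13768 genes tested in all 3 tables. The libraries share the same knockout groups, so r describes these groups and is given with no p. For Trim66 the first 5 were Gars (r = 0.965), Psat1 (0.958), Xpot (0.956), Mthfd2 (0.955) and Nars (0.953), which charge tRNA with glycine and asparagine, export tRNA from the nucleus, or make serine and folate intermediates. For Cyb5r2 they were Slc7a3 (0.959), a transporter of cationic amino acids, Mthfd2 (0.940), Asns (0.935), Aars (0.928) and Cars (0.923), the last a pair of tRNA synthetases for alanine and cysteine. For Cntnap3 they were Phgdh (0.971), the first enzyme of serine synthesis, Mthfd2 (0.966), Aars (0.957), Gpt2 (0.956), an alanine transaminase of mitochondria, and Asns (0.952). By Spearman's rho 3, 4 and 2 of each 5 were again among the first 5. Between the 3 genes r was 0.867 for Trim66 and Cyb5r2, 0.925 for Trim66 and Cntnap3, and 0.911 for Cyb5r2 and Cntnap3. The 3 genes were chosen on these same groups, so a high r between them comes with the choice. In the ranking for Trim66, Cntnap3 was at place 17 and Cyb5r2 at 36. For Cyb5r2, Cntnap3 was at 8 and Trim66 at 24, and for Cntnap3, Trim66 was at 15 and Cyb5r2 at 22.

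The like genes differed in where they started. Gars went from 1943 ± 225 in FST controls to 3088 ± 246 in the knockout (SD, n = 3 each), a rise of 0.67 ± 0.10 (SE, log2; limma adjusted p = 0.00429), and Phgdh from 197 ± 43.4 to 506 ± 181, a rise of 1.32 ± 0.21 (0.00688). Slc7a3 was closer to the 3 genes, at 8.26 ± 4.33 in FST controls and 248 ± 98.4 in the knockout. With both mutations Slc7a3 was back at 8.31 ± 7.84 in FST and at 8.33 ± 5.04 (n = 2) in PHT.

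Few genes went from near zero to a clear level. With a control mean of at most 5 and a mean of at least 20 in the libraries without Ptpmt1, 6 genes were found in FST, 15 in PHT and 8 in PTGC, among 17832, 16937 and 17136 genes at or under the control limit. All 3 genes were inside these limits in FST, Trim66 in all 3 tables and Cntnap3 in PTGC. The limits use the same contrast by which the 3 genes were chosen, so their place here comes with the choice. Cyb5r2 lay just outside in PHT and PTGC, with control means of 8.79 and 5.56, and Cntnap3 just outside in PHT, with a knockout mean of 18.1. Of genes other than the 3, Chac1 and Adm2 met the limits in more than 1 table. Chac1, a known Atf4 target that degrades glutathione, went from 3.46 to 101 in FST, from 1.66 to 169 in PHT and from 4.33 to 193 in PTGC. Adm2, a secreted peptide of the adrenomedullin family, went from 3.30 to 24.2 in PHT and from 3.27 to 45.2 in PTGC. Of the 6 genes in FST, 2 had groups that overlapped (AY036118 and Alox12b), and none of the 8 in PTGC. Of the 15 genes in PHT, 5 had groups that overlapped, 4 of them Y-linked genes in a table where both controls had the female pattern.

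The genes next to the 3 were compared in the same way. Of the 30 nearest genes, 5 on each side of each gene, 7 could be tested in FST and 8 in PHT and in PTGC, and limma and edgeR called 0 in any of the 9 comparisons. At an unadjusted p under 0.05, limma had 1 in the FST knockout, 0 in that of PHT and 1 in PTGC, with a lowest adjusted p of 0.322. When the Eif2a mutation was added to the knockout, 2 of 7 by limma, 4 by edgeR and 3 by DESeq2 had an unadjusted p under 0.05. DESeq2 called 1 of them, Rpl27a by Trim66, which was higher (adjusted p = 0.0376 by DESeq2, and 0.36 ± 0.10 with 0.115 by limma). When the Hri knockout was added in PHT, the 8 neighbours tested differed by -2.20 to 0.19. Limma had 1 of them at an unadjusted p under 0.05 (lowest limma adjusted p = 0.454), and edgeR and DESeq2 had 0. Olfml1, 157361 bases from Cyb5r2, differed by 0.63 ± 0.27 in the FST knockout (limma adjusted p = 0.327) and by -0.82 ± 0.27 on adding the Eif2a mutation (0.185), the direction of Cyb5r2, and by 0.29 ± 0.23 in the PHT knockout and 0.20 ± 0.17 in PTGC. Olfml1 was named after its values were seen. Rpl27a, a ribosomal protein gene 11013 bases from the start of Trim66, differed by -0.12 ± 0.10 in the FST knockout against control, 0.02 ± 0.09 in PHT and 0.00 ± 0.10 in PTGC, and on the other side 1700095J03Rik averaged at most 0.630 in any group. Ppfibp2 ends inside Cyb5r2 on the other strand and shares 129 exon bases with it, so without a stated strand setting some reads of the 2 cannot be told apart. It differed by 0.12 ± 0.15, -0.03 ± 0.17 and -0.19 ± 0.12 in FST, PHT and PTGC (limma adjusted p = 0.811, 0.999 and 0.509). On the other side of Cyb5r2, Gm45040 also averaged at most 0.630 in any group, and the neighbours of Cntnap3, Gm47194 and Spata31, were at 0 in every library.

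Other cell types in the samples were compared by their markers. Cardiomyocyte markers summed to 181504 to 204649 in FST controls and 156492 to 159672 in the knockout, and to 295299 to 318856 and 271287 to 286102 in PTGC, without overlap, while in PHT the ranges overlapped. Of the single markers in FST, Mybpc3 (-0.46), Tnnt2 (-0.39), Myh6 (-0.35), Tnni3 (-0.28), Myl2 (-0.28), Ryr2 (-0.22) and Actc1 (-0.20) were lower. Pln alone was higher there (0.25). In PTGC the single markers went both ways, from -0.52 (Pln) to 0.12 (Ryr2). Erythroid markers, 7 of 7 with reads, were lower in the PHT knockout (1704 to 7642) than in its controls (8729 to 11456) and overlapped in FST and PTGC. The sum of the mural cell markers, 4 of 4 with reads, was lower in the FST knockout (1331 to 1528 against 1668 to 1839) and higher in the PTGC double knockout (2725 to 3202 against 1894 to 2697), and overlapped in PHT. By gene, Cspg4 was lower in FST (-0.53 ± 0.09), while Pdgfrb (0.13 ± 0.15) and Rgs5 (0.67 ± 0.85) were not. In PTGC Cspg4 (0.41), Pdgfrb (0.50) and Kcnj8 (0.24) were higher and Rgs5 was at -0.13. Male germ cell markers, checked because Trim66 is known from the testis, had reads for 2 to 5 of 10 genes, with Tnp1, Tnp2, Prm1 and Tex101 at 0 in all 27 libraries, and summed to 16.6 to 25.5 and 18.9 to 27.1 in FST, 21.7 to 31.0 and 21.0 to 36.1 in PHT, and 24.3 to 43.9 and 36.5 to 59.5 in PTGC. The part of these shifts in the levels of the 3 genes was not tested.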

How the data were processed

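Nuclear RNA of cardiomyocytes was sequenced, and the deposited tables hold, per gene and library, a signal that is the read count divided by 1 size factor per library. STAR 2.5.3a, DESeq2 1.12.4 and mm10 are named in the submitters' processing notes, while these notes and the labels do not give the read counter, the annotation or the strand. Every value was a whole multiple of 1 read within 0.1 read, so reads were recovered.

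Genes with a value of at least 10 in as many libraries as the smallest group were tested with limma 3.58.1 on log2(value + 1), in 1 fit per table over all groups. edgeR 4.0.16 and DESeq2 1.42.0 (R 4.3.3) on recovered reads were alternatives, with other pseudocounts, filters, scalings, a sex term and left-out libraries. Sex was inferred from Y-linked genes and Xist. Fold changes on this scale understate those of low genes. Scripts were tested on simulated data. Ratios used summed reads, with exact 95% intervals for counting error.

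The members and lists were chosen with earlier results of these data known. Named genes were the 3 members, label checks, all TIF1 and cytochrome b5 genes, up to 6 by p of other lists, 5 of like pattern per member, nearest neighbours, and genes near zero in 2 or more tables. Tables were normalized separately and tested separately.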

Additional observations from a re-analysis of the deposited data

How the results depend on the processing

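In the comparison of both mutations with the Ptpmt1 knockout, the 3 genes stayed lower under every alternative run. In PHT, Trim66 was no longer called with a filter at 50 (-3.61, limma adjusted p = 0.0833) or a sex term (-3.46, 0.263), and leaving out 1 library gave -3.79 to -3.43, with the call lost without knockout replicate 2 (0.0815). In FST, Cyb5r2 ranged from -4.75 to -3.36 with 1 library left out, and was not called without knockout replicate 1 (0.0542). Cntnap3 in FST was not called with a pseudocount of 0.5 (-5.61, 0.0809), with a sex term (-4.75, 0.0761), or with any 1 library left out (-4.84 to -4.37), and edgeR called it (adjusted p = 0.00773) while DESeq2 gave no adjusted p. The cause was not tested.

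Small differences changed sign. Cntnap3 in the Eif2a mutant against control turned to 0.048 with a sex term, and ranged from -0.43 to 0.27 with 1 library left out. Between both mutations and the Eif2a mutant, Trim66 turned to 0.00083 with a pseudocount of 5 (-0.67 to 0.55 with a library left out), and Cyb5r2 to 0.10 with that pseudocount, 0.88 with edgeR, 0.89 without replicate 2 of both mutations and 1.26 without both libraries that stand apart (-0.50 to 1.26). Between the PHT double and Hri knockouts, Cntnap3 ranged from -1.33 to 0.48.

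Of the ISR targets, 8 rose in the FST knockout with a sex term (10 to 22 with a library left out), 9 to 23 in that of PHT with a library left out, 8 to 16 fell on adding the Eif2a mutation, and 10 fell on adding the Hri knockout with a sex term. Counts over all genes moved more. Over the alternatives the FST knockout had 18 to 417 genes higher (45 as fitted) and 2 to 440 lower (25), the highest without knockout replicate 3. Adding the Eif2a mutation gave 14 to 184 higher (62) and 15 to 143 lower (60). Adding the Hri knockout gave 2 to 41 higher (9) and 25 to 64 lower (40). The PHT knockout had 19 to 63 higher (42) and 1 to 6 lower (3), and PTGC 55 to 285 higher (99) and 1 to 251 lower (6). Near-zero genes fell from 6, 15 and 8 to 3, 9 and 3 with a control limit of 2. From 100 bases before the start, 4 of 38 ISR promoters and 675 of 32851 held TGATGNAAN, and Cyb5r2 still did.

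No paired analysis was possible because the labels give no replicate numbers shared between groups. Control groups with 0 to 2 reads in all limit the ratios to control of Cntnap3 in the 3 lines and of Trim66 in FST and PHT. In FST the library with both mutations of 1887885 reads cannot show values between 0 and 4.42.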
